A study of Mus musculus with 3 samples.

Results

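The genes described here are 10 heat shock chaperones and cofactors of mouse cells, chosen by name with earlier results of these data known. They are Hspa8 and Hspa1b (Hsp70), Hsph1 and Hspa4l (Hsp110), Hsp90aa1 and Hsp90ab1 (Hsp90), Hspd1 and Hspe1 (chaperonin), Dnajb1 (a J-domain protein) and Bag3. Of these, 9 have probe sets under their own symbol, 25 in all, among 18193 genes named on the array. Hsp90ab1 has none in the annotation used and was not analysed here. The samples were B16 cells, a mouse melanoma line grown in serum-containing medium, harvested at 0, 2 and 4 h of exposure to 1 µg/ml doxorubicin, an anthracycline that poisons topoisomerase II. All 3 cultures carry the same treatment and differ in its length, so drug and time in culture cannot be told apart. Fewer cells of a kind and less RNA per cell cannot be told apart in such bulk samples either. Each time point is 1 Affymetrix Mouse430_2 array. With no replicate there is no test, and every ratio below compares single arrays whose number limits its precision. Signals are linear intensities rescaled to a trimmed mean of 500 on each array, and those under a floor of 100 were set to it before a log2 ratio was taken. A probe set passed the expression filter if its mean log2 signal was at least that of 200, and the brightest passing probe set stands for its gene.

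Heat shock chaperones hold unfolded or partly folded proteins and release them in cycles of ATP hydrolysis. In the Hsp70 cycle a J-domain protein delivers the client and stimulates the ATPase, and a nucleotide exchange factor opens the chaperone again; Hsp90 takes over clients such as kinases and steroid receptors. Transcription of many of these genes is driven by heat shock factors, which bind arrays of short inverted repeats called heat shock elements. Hspd1 and Hspe1 encode Hsp60 and Hsp10 of the mitochondrial matrix, so the heading of cytosolic chaperones under which the genes were listed does not cover them.

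The submitters' labels conflict on cells and treatment. Titles and the treatment protocol name B16 and doxorubicin, source fields name B16 melanoma but an agent called ET at 2 and 4 h, and the description names BMDM (in common use, bone marrow-derived macrophages) and ET. ET is not spelled out, the titles were followed here, and every ratio below rests on that reading. Of 10 pigment cell markers, 10, 9 and 9 reached a signal of 200 at 0, 2 and 4 h, and their summed signals were 207093, 226269 and 227656. The sum is carried by the brightest, such as Tyrp1 (42568, 44083 and 47128). In contrast, 3 of the 9 that passed the expression filter were lower by 2-fold or more at 4 h, against 14.4% of all passing genes. The 3 were Sox10 (13.1-fold lower), Mitf (8.89-fold) and Mc1r (3.32-fold). Their log2 ratios had an SD over probe sets of 0.82, 0.69 and 0.05. Tyr, the pigment cell marker that did not pass, had signals of 221, 170 and 142. Of 9 macrophage markers, 5, 4 and 4 reached 200, with summed signals of 3755, 4678 and 5163, of which Cd68, a lysosomal protein that other cells also make, gave 1884, 3044 and 3699. Besides Cd68, Csf1r (522, 424 and 376), Adgre1 (302, 197 and 301), Lyz2 (372, 414 and 398) and Cd14 (215, 268 and 151) passed the filter. Fcgr1 (199, 130 and 39.9) and Mrc1 (189, 128 and 152) did not pass. Itgam (19.8, 63.0 and 38.8) and Ptprc (52.2, 9.65 and 8.75) were under 100 on each array. Of 7 fibroblast markers, 3 reached 200 on each array: Col1a1 (1702, 2253 and 2109), Col1a2 (731, 478 and 304) and Postn (766, 788 and 1091). The part of these markers in the chaperone values was not tested. The 4 h array also went through a later fluidics run than the others by the file headers, and for this array the run is confounded with the time.

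Of the 9 chaperone genes, Dnajb1 was the only one to differ from 0 h by 2-fold or more. At 2 h, 1 of 9 was lower by that size, against 5.69% of the 9723 genes that passed the expression filter, and 0 of 9 were higher, against 1.41%. At 4 h, 1 of 9 was lower by 2-fold or more, against 14.4% of all genes, and 0 of 9 were higher, against 2.32%. With 9 members, such counts are near the background and are not read as a result about the group. The median log2 ratio of the 9 genes was 0.01 at 2 h and 0.27 at 4 h, against -0.01 and -0.07 over all genes. At either time 5 of the 9 stood above 0 and 4 below it, while 49.0% of all genes stood above 0 at 2 h and 46.1% at 4 h. With quantile normalization and with spike-in scaling, 2 of the 9 stood above 0 at 2 h and 4 at 4 h. The 4 h median was negative in both, at -0.05.

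Bright genes as a whole lay above the median of all genes in this scaling. In the brightest 25% of genes, those with a mean signal of 1742 or more, the median log2 ratio was 0.19 at 2 h and 0.28 at 4 h, with 73.8% above 0 at 4 h, and 5 of the 9 chaperones are among them (Hspa8, Hsph1, Hsp90aa1, Hspd1 and Hspe1). The way arrays are scaled also moves the balance of all genes. Of the genes past 2-fold in either direction, 80.1% were lower at 2 h and 86.1% at 4 h. These shares were 62.6% and 55.3% with equal medians, 64.2% and 70.5% with quantile normalization, and 92.0% and 96.7% with arrays scaled on their 18 hybridization spike-in probe sets. At 2 h the median of all genes stood at -0.01, at 0.14 with equal medians and at -0.23 with spike-in scaling. At 4 h it stood at -0.07, 0.24 and -0.39.

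Probe sets of 1 gene give an error from within the arrays, the SD of their log2 ratios about the gene's mean, which leaves out variation between cultures and between arrays. In 4 bins of signal it ranged from 0.56 in the dimmest to 0.27 in the brightest at 2 h, and from 0.66 to 0.32 at 4 h. Chaperone ratios of about this size are given below as values, without a claim of change.

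**Figure D1:**
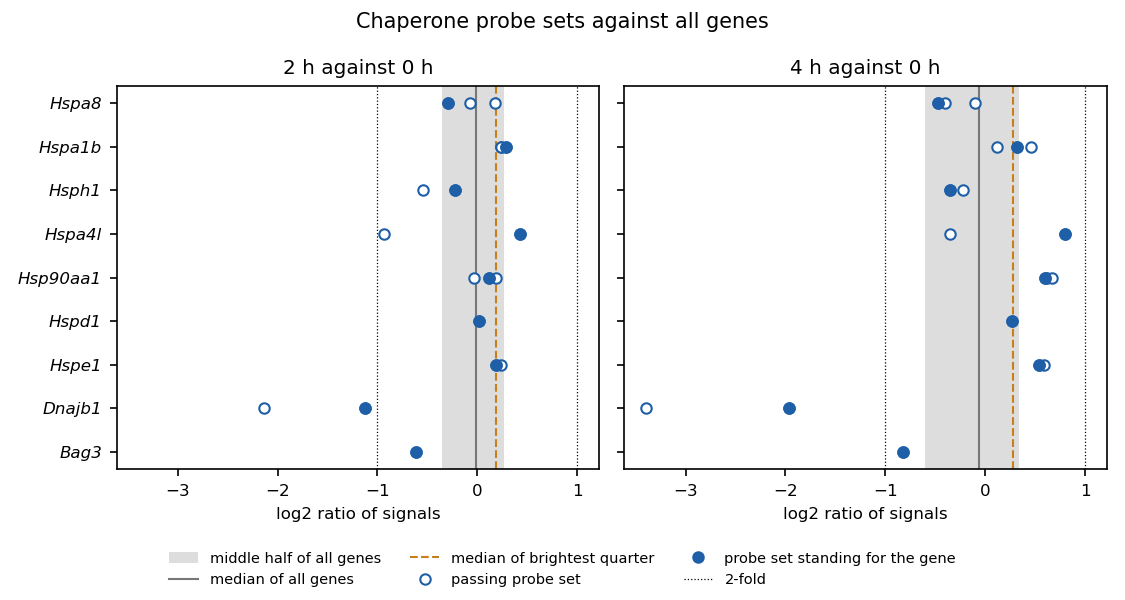
Log2 ratio of signals at 2 h (left panel) and 4 h (right panel) against 0 h for every passing probe set of 9 chaperone genes, filled where the probe set stands for its gene, with the interquartile range and median of all 9723 genes and the median of the brightest 25% of genes. Both Dnajb1 probe sets lie beyond the 2-fold line at both times, and the other filled points lie within it.

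Dnajb1, the main heat-inducible J-domain partner of Hsp70 (Hsp40), lies on chromosome 8 at chr8:83608175-83612653 in GRCm38.p6. Probe set 1416756_at, which stands for the gene, had signals of 3284, 1509 and 844 at 0, 2 and 4 h. Probe set 1416755_at, designed from the same transcript record, had 2296, 521 and 219. In both, the 0 h array was highest and the 4 h array lowest. For 1416756_at this is 2.18-fold lower at 2 h and 3.89-fold lower at 4 h (log2 ratios -1.12 and -1.96). For 1416755_at the log2 ratios were -2.14 and -3.39, the second of these 10.5-fold lower. The SD over the 2 probe sets was 0.72 at 2 h and 1.01 at 4 h, so the direction is shared and the size is not settled. Counted from the lowest ratio, Dnajb1 ranked 402 of 9723 genes at 2 h and 325 at 4 h. With equal medians its 2 h ratio was -0.97, just inside 2-fold, and its 4 h ratio -1.66.

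Bag3, a nucleotide exchange factor of Hsp70 that also links it to small heat shock proteins and selective autophagy, was measured by 1 probe set. The gene lies at chr7:128523583-128546981. Its signals were 1276, 833 and 724 at 0, 2 and 4 h. The 0 h array was again highest. The ratios were 1.53-fold lower at 2 h and 1.76-fold lower at 4 h (log2 -0.62 and -0.82), against a probe-level SD of 0.35 and 0.43 for probe sets of like signal. Over 11 alternative settings the 4 h log2 ratio ran from -1.14, with spike-in scaling, to -0.51, with equal medians. Bag3 was thus at least 2-fold lower at 4 h only with spike-in scaling among the settings tried.

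**Figure D2:**
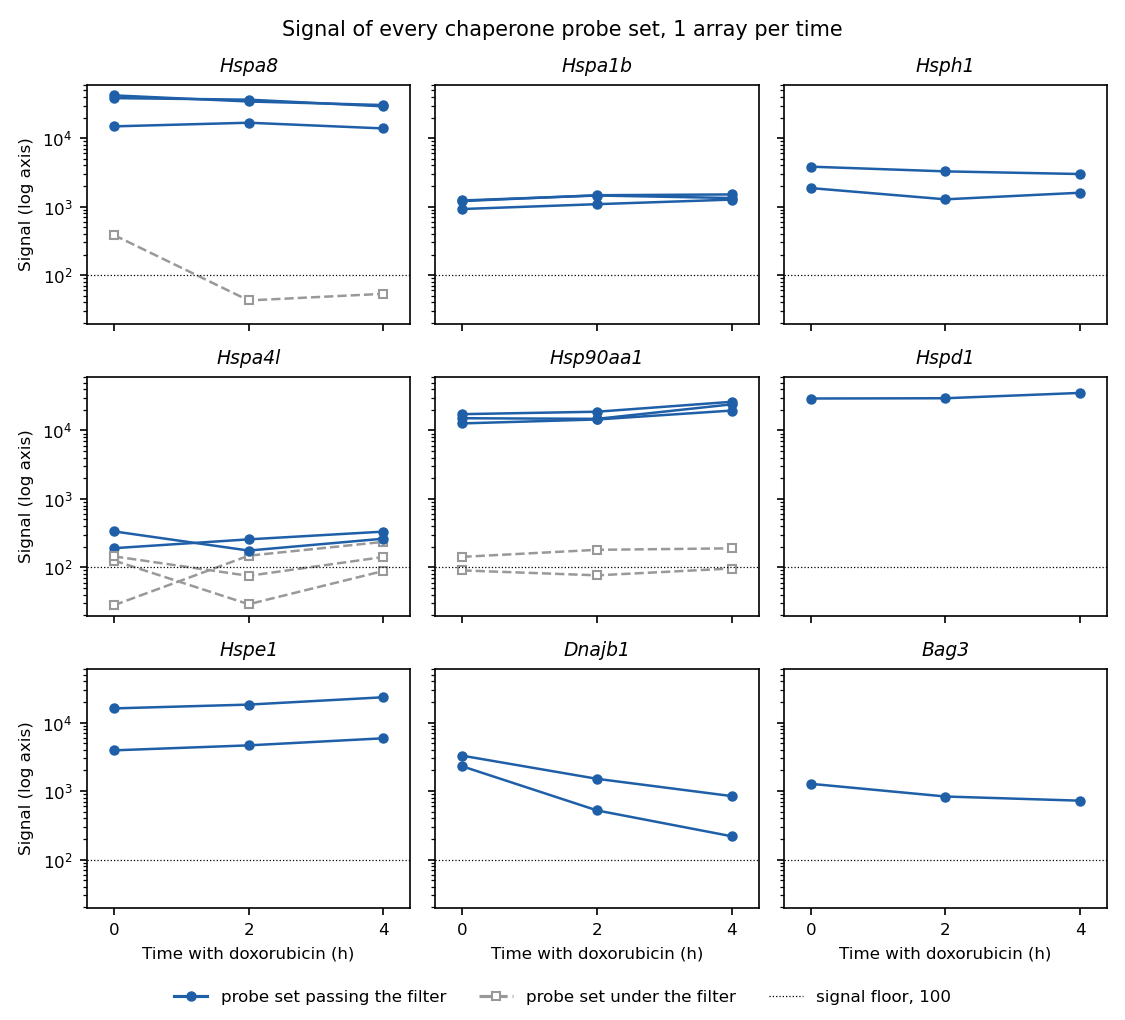
Signal of all 25 probe sets of the 9 chaperone genes at 0, 2 and 4 h of doxorubicin, 1 array per point, on a log axis, with probe sets under the expression filter dashed and the signal floor of 100 dotted. The lines of Dnajb1 and Bag3 slope down, those of Hsp90aa1 and Hspe1 that pass the filter slope up between 2 and 4 h, and the passing probe sets of Hspa1b stay close together.

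Hspa8, the constitutive Hsp70 of the cytosol (Hsc70), lies at chr9:40801276-40805202 and was measured by 4 probe sets, of which 3 passed the filter. Probe set 1455789_x_at had signals of 42248, 34392 and 30550 at 0, 2 and 4 h, and 1420623_x_at had 38538, 36563 and 29223. Probe set 1420622_a_at had 14903, 16840 and 13902, so it was highest at 2 h. All 3 were lowest at 4 h. Their log2 ratios at 4 h were -0.47, -0.40 and -0.10, a mean of -0.32 ± 0.20 (SD over 3 probe sets). The probe set that stands for the gene was 1.38-fold lower at 4 h, outside the interquartile range of the brightest 25% of genes (-0.02 to 0.52) but within that of all genes (-0.60 to 0.34). The fourth, 1431182_at, had 385, 42.7 and 53.3, under the floor at 2 and 4 h, and it did not pass the filter.

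Hspa1b, a stress-inducible Hsp70 at chr17:34956429-34959238, had a higher signal at 2 and 4 h than at 0 h in each of its 3 passing probe sets. All 3 were designed from the same transcript record, so their agreement is not the precision of a change. They had signals of 1208, 1470 and 1510 (1452318_a_at), 924, 1088 and 1269 (1427126_at), and 1232, 1456 and 1338 (1427127_x_at) at 0, 2 and 4 h. The log2 ratios averaged 0.25 ± 0.03 at 2 h and 0.30 ± 0.17 at 4 h (SD over 3 probe sets), and the probe set standing for the gene was 1.22-fold and 1.25-fold higher. These ratios lie under the probe-level SD of 0.35 and 0.43 for probe sets of like signal. The 4 h ratio was 0.00 with spike-in scaling and 0.63 with equal medians. Hspa1b has a nearly identical neighbour, Hspa1a, whose own probe sets were dim (15.8, 8.60 and 51.3 in the brightest). Probe sets of the pair may share transcripts, so the Hspa1b values may hold both genes.

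Hsph1 (Hsp105) and Hspa4l belong to the Hsp110 group, Hsp70 relatives that act as nucleotide exchange factors. They lie at chr5:149616843-149636498 and chr3:40744500-40796103. For Hsph1, 1425993_a_at had signals of 3841, 3279 and 2999 at 0, 2 and 4 h, and 1423566_a_at had 1869, 1281 and 1599. Both were highest at 0 h, and they differ in which later array was lowest. Their log2 ratios averaged -0.39 ± 0.22 at 2 h and -0.29 ± 0.09 at 4 h (SD over 2 probe sets). Hspa4l was dim, and its 5 probe sets disagreed: 1418253_a_at had 190, 256 and 332, whereas 1449010_at had 335, 176 and 262. The log2 ratios of these 2 passing probe sets at 4 h were 0.80 and -0.35, and no direction is drawn for the gene. The other 3 Hspa4l probe sets had signals between 28.0 and 235 and did not pass.

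Hsp90aa1, the inducible cytosolic Hsp90 at chr12:110691036-110696395, stood higher at 4 h in each of 3 passing probe sets. Signals at 0, 2 and 4 h were 17276, 18758 and 26171 for 1438902_a_at, and 12659, 14450 and 19494 for 1426645_at. They were 15071, 14755 and 24025 for 1437497_a_at. The 4 h array was highest in all 3, and the 0 h and 2 h arrays lay close together. At 4 h the probe set standing for the gene was 1.51-fold higher than at 0 h, and the 3 log2 ratios averaged 0.63 ± 0.04, against 0.09 ± 0.11 at 2 h (SD over 3 probe sets). Probe sets of like signal differed with an SD of 0.32 at 4 h. The 4 h log2 ratio of Hsp90aa1 was 0.21 with quantile normalization, 0.28 with spike-in scaling and 0.90 with equal medians, while its 2 h ratio, 0.12 in the main scaling, was negative with quantile normalization and with spike-in scaling. A further pair of Hsp90aa1 probe sets, 1433251_at (142, 180 and 189) and 1441827_x_at (90.1, 76.4 and 96.1), did not pass.

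Hspd1 and Hspe1 form the folding chamber of the mitochondrial matrix and its lid. Hspe1 had signals of 16129, 18325 and 23456 at 0, 2 and 4 h in 1450668_s_at, and of 3933, 4651 and 5900 in 1422579_at. Both probe sets were designed from the same transcript record, and in both the 4 h array was highest and the 0 h array lowest. The log2 ratios averaged 0.21 ± 0.04 at 2 h and 0.56 ± 0.03 at 4 h (SD over 2 probe sets), 1.45-fold higher at 4 h in the probe set that stands for the gene. That probe set's 4 h log2 ratio, 0.54, lay just above the interquartile range of the brightest 25% of genes (-0.02 to 0.52). The probe-level SD for like signal was 0.32. Hspd1 was measured by 1 probe set, with signals of 29247, 29511 and 35283, so its 0 h and 2 h arrays were nearly equal. It was 1.21-fold higher at 4 h (log2 0.27), close to the 0.28 of the brightest 25% of genes. With quantile normalization and with spike-in scaling the 4 h log2 ratio of Hspd1 was -0.05 in both, and that of Hspe1 was 0.16 and 0.22. At 2 h both genes were negative in these 2 scalings.

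**Figure D3:**
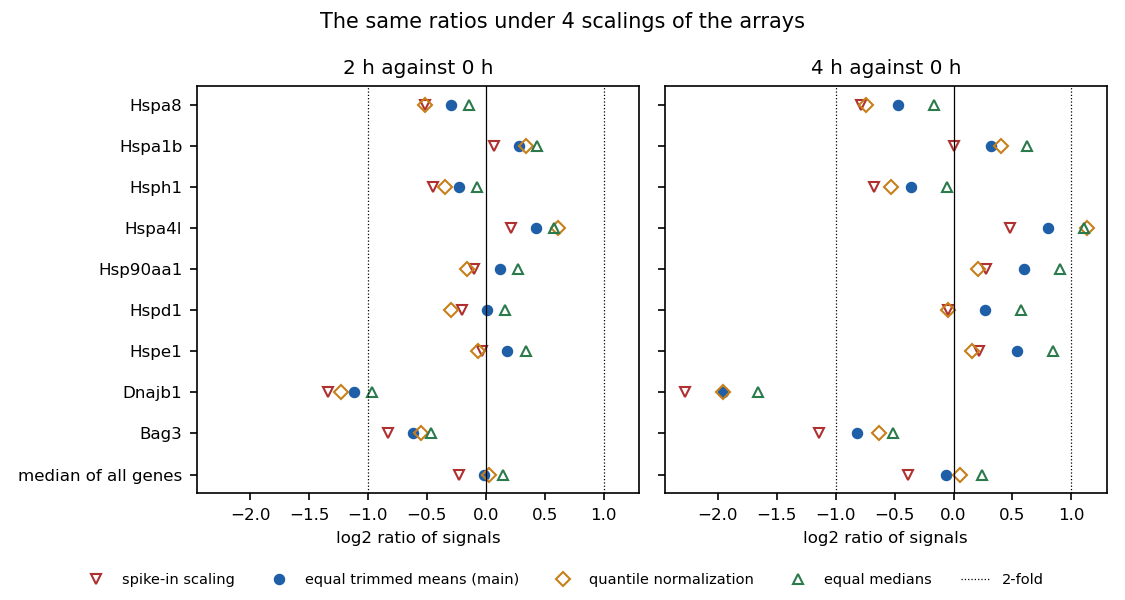
Log2 ratio at 2 h (left panel) and 4 h (right panel) against 0 h for the probe set standing for each of 9 chaperone genes, and the median of all genes, under 4 scalings of the arrays. Dnajb1 and Bag3 lie left of 0 in each scaling, while Hspd1 lies on either side of 0 at both times, as do Hsp90aa1 and Hspe1 at 2 h.

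At 4 h against 2 h, 0 of the 9 genes were lower by 2-fold or more, against 5.41% of all genes, and 0 were higher, against 0.843%. These ratios share arrays with those above and are given side by side only. Dnajb1 was 1.79-fold lower at 4 h than at 2 h, and 2.39-fold lower in its other probe set. The log2 ratio was 0.48 for Hsp90aa1, 0.36 for Hspe1 and 0.26 for Hspd1.

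Hspd1 and Hspe1 lie head to head on chromosome 1 (chr1:55077833-55088243 and chr1:55088148-55091317 in GRCm38.p6) and share a stretch of promoter. Promoter windows of 300 bases, 250 before to 50 after a start site, were taken from RefSeq for 7 of the 10 genes, namely Hspa1b, Hspa4l, Hspd1, Hspe1, Hsph1, Dnajb1 and Bag3. A heat shock element was searched as 3 alternating units, GAANNTTCNNGAA or TTCNNGAANNTTC, which are each other's reverse complement, so both strands were read and overlapping matches were counted. It was found for 3 of the 7 genes, Hspd1, Hspe1 and Hsph1, and for 0.662% of all 27025 genes with a window. The shorter form of 2 inverted units, GAANNTTC or TTCNNGAA, was found for 5 of the 7, with Bag3 and Hspa1b added, and for 17.0% of all genes. By window, the longer form stood in 4 of 10 chaperone windows and in 0.603% of all 32851, and the shorter in 6 of 10 and 15.1%. Windows of Hspd1 and Hspe1 overlap, as do those of Hsph1, so the same bases are counted more than once. No match of either form stood in the windows of Dnajb1 and Hspa4l. Only exact letters were searched, so an element with a differing letter would be missed in any gene. Below, capitals mark matches of either form. The 4 stretches shown, of 150 bases before a start site, are examples with the longer form, the shorter form or no match. They are chr1:55087998-55088147 on the plus strand for Hspe1, chr5:149636316-149636465 on the minus strand for Hsph1, chr17:34959239-34959388 on the minus strand for Hspa1b, and chr8:83608025-83608174 on the plus strand for Dnajb1, all in GRCm38.p6.
Hspe1: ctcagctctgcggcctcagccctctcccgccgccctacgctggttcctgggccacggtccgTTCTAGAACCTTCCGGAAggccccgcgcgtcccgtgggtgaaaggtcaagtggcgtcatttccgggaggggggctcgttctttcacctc
Hsph1: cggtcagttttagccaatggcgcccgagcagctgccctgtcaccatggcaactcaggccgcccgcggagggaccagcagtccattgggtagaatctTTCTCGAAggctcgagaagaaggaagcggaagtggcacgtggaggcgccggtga
Hspa1b: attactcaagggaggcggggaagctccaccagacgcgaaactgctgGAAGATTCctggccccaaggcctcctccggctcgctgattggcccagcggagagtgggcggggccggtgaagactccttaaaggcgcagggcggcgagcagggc
Dnajb1: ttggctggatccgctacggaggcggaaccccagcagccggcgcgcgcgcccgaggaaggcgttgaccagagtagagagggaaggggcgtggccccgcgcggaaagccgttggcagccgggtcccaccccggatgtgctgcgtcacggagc

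In the Hspe1 stretch the capitals hold 2 overlapping matches of the longer form, from position -89 to -72, counted from the start site. The same 2 matches, at the same bases of chromosome 1 on the other strand, were found for Hspd1, from position -144 to -127 of 1 of its 2 start sites. In Hsph1 the longer form lies after the start, at positions 16 to 28 of one start site and 37 to 49 of the other. These are the same bases of chromosome 5, and the capitals above are a match of the shorter form. The 3 genes with the longer form had 4 h log2 ratios of 0.54 (Hspe1), 0.27 (Hspd1) and -0.36 (Hsph1), so they stood on both sides of 0. A match is a run of letters and not a site of binding. Any relation between matches and ratios was not tested.

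**Figure D4:**
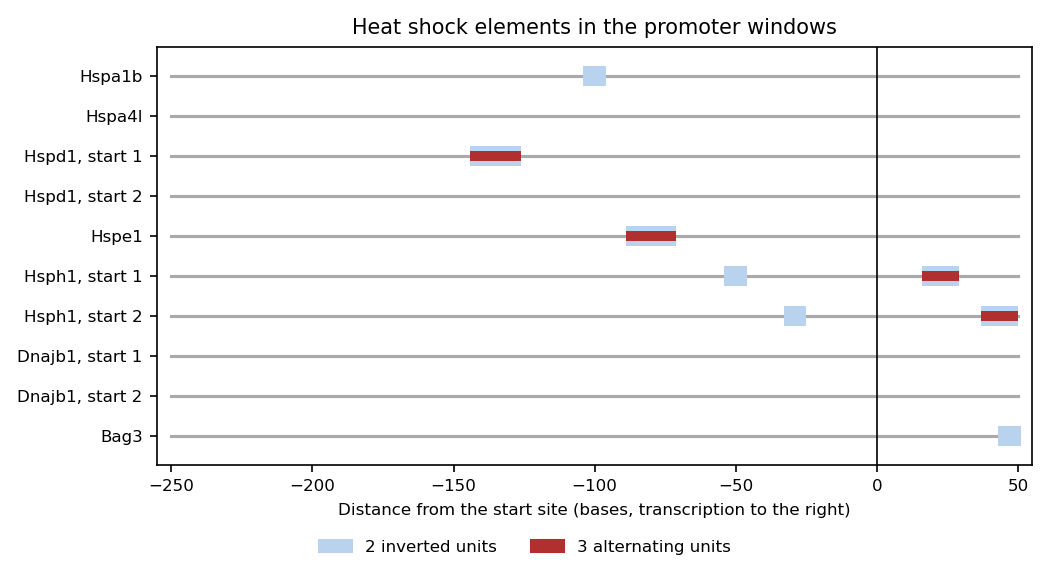
Positions of heat shock element letters in 10 promoter windows of 7 chaperone genes, in bases from each start site (0), with 2 inverted units in pale blue and 3 alternating units in red. The longer form appears in 4 windows, those of Hspe1, of 1 Hspd1 start and of both Hsph1 starts, and no match appears in the windows of Dnajb1 and Hspa4l.

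The wider folding network was read from 9 lists with 80 genes, of which 76 had a probe set under their own symbol and 68 passed the filter. At 2 h, 1 of the 68 was lower by 2-fold or more, against 5.69% of all genes, and 1 was higher, against 1.41%. At 4 h, 6 were lower, against 14.4%, and 0 higher, against 2.32%. The median log2 ratio of the 68 was 0.15 at 2 h and 0.16 at 4 h, against -0.01 and -0.07 over all genes. In the brightest 25% of genes it was 0.19 and 0.28. The 4 h list medians ran from -0.01 (J-domain proteins) to 0.73 (prefoldin). With spike-in scaling they lay on both sides of 0, from -0.33 to 0.41 in the same lists.

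Cofactors of Hsp70 held the lowest gene of the network. Bag5, a nucleotide exchange factor of the same domain family as Bag3, had signals of 1340, 635 and 94.0 at 0, 2 and 4 h in 1 probe set, and the last of these is under the floor. The 2 h signal was 2.11-fold lower than at 0 h, and the 4 h signal at least 13.4-fold lower. Bag4, a further BAG protein, was 2.26-fold lower at 4 h (log2 -1.17, SD 0.65 over 3 probe sets). St13 (Hip), which stabilises the ADP state of Hsp70, was the highest of the 9 cofactors at 4 h, at a log2 ratio of 0.78 (2 probe sets, SD 0.21) and with signals of 5525, 7257 and 9519. In all, 6 of the 9 Hsp70 cofactors stood above 0 at 4 h, against 46.1% of all genes and 73.8% of the brightest 25%. Named after their values were seen, the other BAG genes of the list, Bag1, Bag6 and Bag2, had 4 h log2 ratios of 0.69, 0.53 and -0.56. With Bag3, BAG genes thus lay on both sides of 0, with Bag2, Bag3, Bag4 and Bag5 below it.

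Of 14 passing J-domain genes other than Dnajb1, 4 stood above 0 at 2 h and 7 at 4 h, against 49.0% and 46.1% of all genes. At 4 h, 1 of the 14 was lower by 2-fold or more, against 14.4% of all genes. The count above 0 at 2 h was 7 with equal medians, 7 with quantile normalization and 2 with spike-in scaling, which left 4 above 0 at 4 h. The gene past 2-fold was Dnajc5, the cysteine string protein of secretory vesicles, at a log2 ratio of -1.18 (5 probe sets, SD 0.56) and with signals of 1635, 1449 and 719. The highest was Dnajc9, a histone co-chaperone, at 0.63. None of the 14 had a 4 h ratio as low as that of Dnajb1. Named after their values were seen, Dnajb4, Dnajb5, Dnajb2 and Dnajb12 also stood below 0 at 4 h. Their log2 ratios were -0.87, -0.85, -0.65 and -0.64, while that of Dnajb6 was 0.51.

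Among 11 passing Hsp90 cofactors the median log2 ratio was 0.02 at 2 h and 0.05 at 4 h, with 6 of the 11 above 0 at 4 h. The 4 h median has no settled sign. It was 0.36 with equal medians (7 above 0), -0.26 with quantile normalization (4) and -0.27 with spike-in scaling (1). With the mean over probe sets it was -0.14, with 2 above 0. Cdc37l1, a relative of the kinase-specific cofactor Cdc37, was the 1 gene lower by 2-fold or more at 4 h, against 14.4% of all genes. Its log2 ratio was -1.44 (3 probe sets, SD 0.32), with signals of 935, 512 and 344. Nudc, a cofactor first known from nuclear movement in fungi, was highest at 0.45. Ptges3 and Ppid have no probe set under their symbol alone.

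The cytosolic chaperonin CCT, which folds actin and tubulin, had all 8 subunits above 0 at 4 h, from 0.11 (Cct3) to 0.55 (Cct8), with a median of 0.23. Of the brightest 25% of genes 73.8% stood above 0, with a median of 0.28. The CCT direction rests on the scaling, since 1 of the 8 stood above 0 with quantile normalization and 3 with spike-in scaling. Prefoldin, which hands nascent chains to CCT, had all 6 subunits above 0 at 4 h, from 0.16 (Pfdn6) to 0.89 (Pfdn1), with a median of 0.73. With quantile normalization 5 of the 6 stayed above 0 and with spike-in scaling 4, with medians of 0.59 and 0.41. No subunit of either complex was 2-fold different at 4 h in the main scaling, against 14.4% of all genes lower and 2.32% higher. With equal medians the 4 h prefoldin median was 1.04.

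Mitochondrial chaperones and proteases beside Hspd1 and Hspe1 were split. At 4 h, 2 of the 9 passing genes were lower by 2-fold or more, against 14.4% of all genes. Grpel2, a nucleotide exchange factor of the mitochondrial Hsp70, had signals of 1176, 637 and 401 and was 2.93-fold lower at 4 h by 1 probe set. Clpx, the ATPase of the ClpXP protease, was 2.29-fold lower, from dim signals of 312, 262 and 136. The mitochondrial Hsp70 itself, Hspa9, was the highest of the 9 passing genes, at 0.49 (SD 0.36 over 4 probe sets) with signals of 5500, 6642 and 7720.

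Of the small heat shock proteins, 6 passed, and none was 2-fold different at either time. Over all genes, 5.69% were lower by that size and 1.41% higher at 2 h, and 14.4% and 2.32% at 4 h. At 4 h, Cryab (αB-crystallin) had the highest log2 ratio of the 6, 0.49, with signals of 11075, 15182 and 15550, and Hspb7 the lowest, -0.29. Among other cytosolic Hsp70 and Hsp110 genes, Hspa2 had signals of 310, 671 and 562, 2.16-fold higher at 2 h and 1.81-fold at 4 h by 1 probe set, and Hspa14 was lowest at -0.41 at 4 h. Of the heat shock factors and their regulators, Hsf1 has no probe set under its symbol alone and Hsf2 did not pass. Hsf4 stood at 0.03, and Hsbp1, which binds heat shock factor 1 and dampens it, had signals of 3550, 4957 and 5760 (0.70 at 4 h, SD 0.11 over 2 probe sets).

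**Figure D5:**
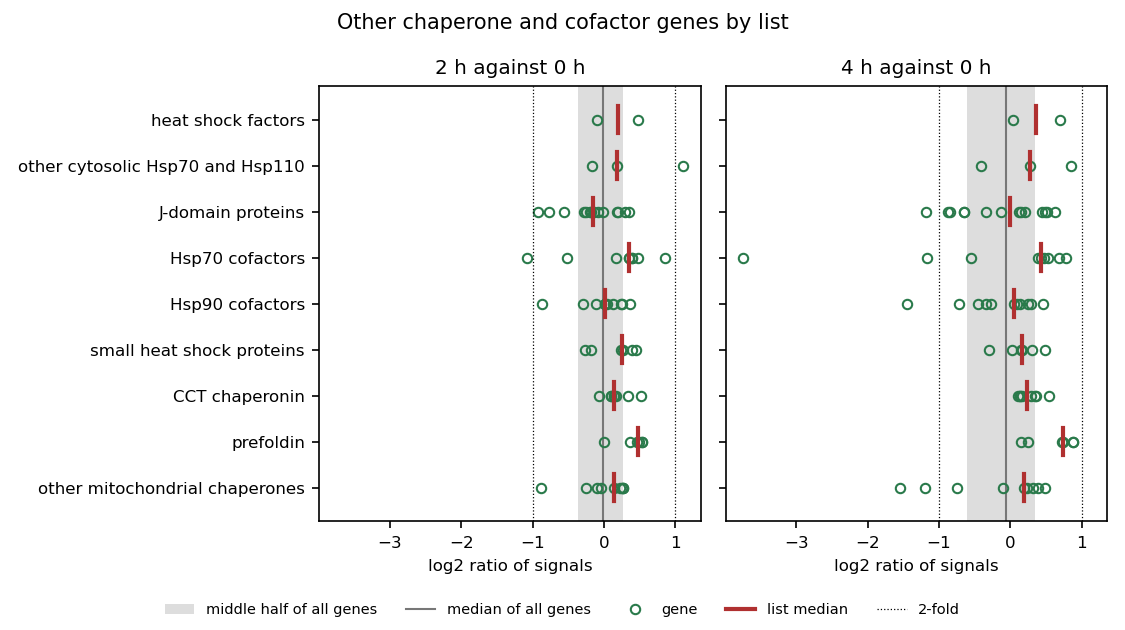
Log2 ratio of signals at 2 h (left panel) and 4 h (right panel) against 0 h for the 68 passing genes of 9 lists of other chaperones and cofactors, 1 circle per gene and a red bar at each list median, over the interquartile range and median of all genes. Prefoldin has the highest list median, 0.48 at 2 h and 0.73 at 4 h, and Bag5 is the point furthest left at 4 h.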

How the data were processed

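The authors deposited 1 intensity per probe set and array, linear and already scaled, as the 2% trimmed mean of each array is 150.0. The submitters' processing notes name GCOS 1.4, and the sources used here do not give the signal algorithm. Titles placed the arrays at their time points.

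All arrays were brought to a 2% trimmed mean of 500 and values below 100 raised to that floor before log2 values were computed. Probe sets with an average log2 signal equal to 200 or above were kept. Of 45101 probe sets, 34958 carry 1 gene symbol, 932 carry several and 9211 are unnamed here. Symbols were updated by Entrez ID to RefSeq (GRCm38.p6) for 34754. The kept probe set of highest average stood for its gene, which left 9723 genes, 3905 of them with 2 or more. Genes were counted by a size of 2-fold, with no p-value or SE.

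All listed chaperones are described. Of each network list, the highest and lowest gene at 4 h and those past 2-fold are named, and the 3 genes nearest in pattern to the lowest chaperone. Members and lists were chosen with earlier results of these data known. Counting, error and motif steps were tested on simulated data. Alternatives covered scaling, floor, filter and choice of probe set. Python 3.11.15, numpy 2.4.6, pandas 2.3.3 and matplotlib 3.10.9 were used.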

Additional observations from a re-analysis of the deposited data

How the results depend on the processing

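No paired analysis was possible because each time point is 1 array. In all, 11 alternatives to the scaling, floor, filter and choice of probe set were tried. The number of chaperones at least 2-fold lower was 0 at 2 h with equal medians and 2 at 4 h with spike-in scaling (Dnajb1 and Bag3), against 1 each. The number at least 2-fold higher at 4 h was 1 with equal medians and 1 with quantile normalization (Hspa4l), against 0. The median log2 ratio of the chaperones at 4 h, 0.27, has no settled sign. It was -0.05 with quantile normalization, -0.05 with spike-in scaling, -0.04 with a filter of 400 and 0.57 with equal medians. It was also -0.35 with a floor of 200 and -0.01 with values as deposited, and both medians were the ratio of Hspa4l, a dim gene. All arrays had the same scale factor, 3.33, between deposited values and the main scaling. Values as deposited thus keep the scaling between arrays and set the floor higher relative to the signals. At 2 h it ran from -0.29 to 0.17. Heat shock elements of 2 inverted units were found for 5 genes, against 3 with the longer form. Dnajb1, Bag3, Hspa8 and Hsph1 kept their sign at both times in every alternative that gave a value, and the 4 h ratio of Hspa1b was 0.00 with spike-in scaling. Hspa4l had the other sign in 4 of 10 at 2 h and 3 of 10 at 4 h. With a floor of 200 and without suffixed probe sets its 4 h ratio, -0.35, was that of 1449010_at in place of 1418253_a_at. With values as deposited its ratio was -0.01 at both times, with both later signals at the floor. Hspa4l has no value with a filter of 400, and Hspa8 and Hsph1 have none without suffixed probe sets. The share of all genes at least 2-fold lower ranged from 3.42% to 9.38% at 2 h and from 8.89% to 22.5% at 4 h over the alternatives. That of genes at least 2-fold higher ranged from 0.298% to 2.31% and from 0.761% to 7.38%. The causes of the other differences between settings were not tested.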

Other observations

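The genes outside the chaperones whose log2 ratios at 2 h and 4 h lay nearest to those of Dnajb1, by Euclidean distance over these 2 values, were Rpp25l (distance 0.02), Kctd15 (0.02) and Cdan1 (0.04). Rpp25l had log2 ratios of -1.11 and -1.95, Kctd15 of -1.12 and -1.98, and Cdan1 of -1.09 and -1.93. In all, 78 genes lay within 0.25.

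Some chaperone genes that did not pass the filter had signals on either side of the floor of 100. Hspa12a, an atypical Hsp70, had signals of 199, 98.1 and 32.3 at 0, 2 and 4 h, and the small heat shock protein Hspb3 had 251, 16.5 and 207. Hspa12a was thus under the floor at 2 and 4 h and Hspb3 at 2 h, so the size of these differences is not settled. In the network lists, the longer heat shock element was found in promoter windows of Dnajb6 and Chordc1, 2 of 66 genes with a window. Of all genes with a window, 0.662% had it. The log2 ratios of Dnajb6 and Chordc1 at 4 h were 0.51 and 0.29, and any relation to the element was not tested.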
